A study of Mus musculus with 36 samples.

Results

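The libraries compared here came from untreated fibroblasts carrying the transcription factors Gata4, Hand2, Mef2c and Tbx5 (GHMT), 3 taken at day 21 and 3 at day 7. They were chosen by their titles, as those naming D21 GHMT or D7 GHMT with no DMSO, and are 6 of the 36 libraries of the series. Both days shared the cells and the medium: mouse embryonic fibroblasts from embryos of days 12.5 to 13.5, from a strain with mCherry under the promoter of Myh6, kept in StemPro34 serum-free medium with FGF2, FGF10 and VEGF. The other libraries used here are DMSO-treated GHMT cells (1% DMSO, a polar solvent) at days 21 and 7 and untreated uninfected fibroblasts at the same days, 3 libraries each, with day 2 libraries in the fits. Uninfected fibroblasts treated with 1% DMSO entered the fits that used uninfected cells, where they add to the spread, but were not compared. The labels do not give the promoter or vector that carried the factors, the share of cells that received them, or whether replicates were separate cultures. The p-values therefore reflect only how far these samples spread, and part of that spread may be technical.

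Gata4 is a zinc finger factor, Hand2 a basic helix-loop-helix factor, Mef2c a MADS box factor and Tbx5 a T-box factor, and all belong to the network that switches on heart muscle genes in the embryo. Forced together into fibroblasts, they turn part of the cells toward cardiomyocyte-like cells, which build sarcomeres from myosin, actin, troponin and titin. Conversion is incomplete in general, so the RNA of such a culture also holds cells that remain fibroblasts. Embryonic fibroblast cultures can also carry macrophages, endothelial cells and mesothelial cells.

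Expression was given as kallisto's TPM, a relative abundance per gene that corrects for length and has the same total in every library; it keeps no read depth, so the depth behind each value is unknown and no counting interval is given. Between 17634 and 18486 genes reached 1 TPM in a library, and protein-coding genes held 59.1 to 65.2% of TPM. Correlations of log2(TPM + 1) between libraries of 1 day were 0.943 to 0.955 across genes, and day 7 replicate 1 was as near to day 21 replicate 3 (0.954) as to its own day. The first principal component of the 6 libraries held 27.7% of variance and separated the days, with day 21 at 14.1 to 40.7 and day 7 at −45.3 to −13.2. The DMSO-treated GHMT libraries were less alike, with median correlations to their own group of 0.913 to 0.927 at day 21 and 0.931 to 0.942 at day 7. The lowest of each day were day 21 replicate 3 and day 7 replicate 1, and of the uninfected cells day 21 replicate 1 (0.942).

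The introduced factors were measured first, and no call was made on them. Gata4 had 117, 162 and 117 TPM at day 21, against 178, 116 and 142 TPM at day 7. Hand2 had 144, 212 and 126 TPM at day 21, against 183, 141 and 128 TPM at day 7, and a transcript antisense to it overlaps it. The days overlapped for both genes. Mef2c had 731, 629 and 617 TPM at day 21, against 1551, 655 and 684 TPM at day 7, so that day 7 replicate 1 stood far above the other 5 libraries, which overlapped. Tbx5 had 163, 193 and 132 TPM at day 21, against 247, 149.6 and 169 TPM at day 7, with overlapping days. Values of introduced and endogenous copies cannot be told apart in these data.

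Across the transcriptome the later day was marked by more genes going up than down. Of 20618 genes tested, 54 rose at day 21 (0.262%) and 10 fell (0.0485%), 64 calls in all (0.31%), by limma at an adjusted p under 0.05. At an unadjusted p under 0.05 the counts were 1234 higher (5.99%) and 743 lower (3.6%). The 3 day 21 libraries were all above the 3 day 7 libraries for 2232 genes (10.8%) and all below them for 1408 (6.83%), and all 64 called genes were among these. Of the 64, 56 were protein-coding and 53 changed by more than 1 on the log2(TPM + 1) scale, which is used for every change below and understates those of low genes. Most of the rises were from low levels: 36 of 54 had a day 7 mean under 5 TPM and 14 a mean under 1 TPM. An exact permutation test of 1 gene cannot go below p = 0.1 with 3 libraries against 3, so calls rest on the spread pooled over the 18 libraries of the table. Leaving out DMSO-treated day 21 replicate 3 and day 7 replicate 1 gave 61 and 11 calls, which held 46 of the 64. Of the 54 genes that rose, 11 reached 1 TPM in fewer than 3 GHMT libraries outside untreated day 21, so they were tested only through the group in which they were high; Prl8a9, Chl1, Reg3g and Mir7041 were among them.

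The calls depended on single libraries and on the size of the fit. With 1 of the 6 libraries left out, 10 to 53 genes rose and 1 to 4 fell, and the rises were 53 without day 7 replicate 2 but 10 without day 7 replicate 3, 15 without day 7 replicate 1, 18 without day 21 replicate 1 or 3 and 32 without day 21 replicate 2. A fit of the 9 untreated GHMT libraries, with day 2, kept 10 of the 64 calls, namely C7, Chl1, Cxcl14, Galnt16, Gtsf1, Nfasc, Prl8a2, Prl8a9, Tcap and Zcchc5. A pseudocount of 0.1 kept 22 of the 64 calls, a filter at 5 TPM 30 and median ratio scaling 46. Among the genes named by the rule given below, the pseudocount ended the calls of Myh6, Actc1, Steap4, Comp, Prg4, Mmp13, Kng1, Inmt, Reg3g, Mir7041, Slc39a14, Sod3, Abcg1, Mdk, Mirg and Armcx6. Among the same genes the filter ended the calls of Tcap, Mmp13, Kng1, Sod3 and Armcx6 and left Reg3g, Mir7041 and Abcg1 untested. The scaling ended the calls of Actc1, Mir7041, Abcg1 and Armcx6.

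**Figure D1:**
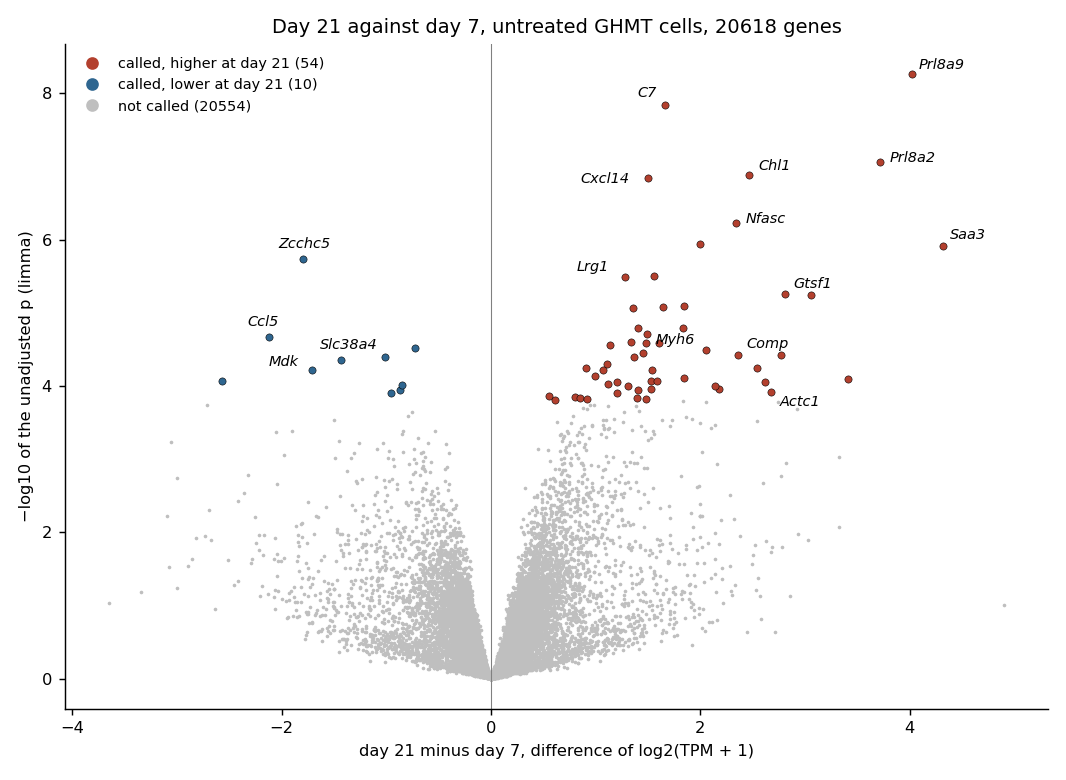
Change of each tested gene in untreated GHMT cells, day 21 minus day 7, on the log2(TPM + 1) scale (horizontal axis) against −log10 of the unadjusted limma p (vertical axis). The 54 genes that rose are red, the 10 that fell are blue and the rest are grey; Saa3, Prl8a9 and Prl8a2 lie farthest to the right among the labelled genes and Ccl5 farthest to the left.

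Heart muscle genes were among the rises, led by cardiac actin, the alpha myosin heavy chain and the titin cap. Of 31 sarcomere genes tested, 3 rose, none fell, 29 lay above 0 and the median change was 0.55, against 0.02 over all genes tested, where 11051 of 20618 lay above 0. Day 21 was above day 7 in every library for 14 of the 31 and below it for 2, against 10.8% and 6.83% of all genes tested. A further 7 sarcomere genes, Myl2 and Myl3 of the ventricle among them, stayed under 1 TPM in all 6 libraries. In bulk RNA, more cells of a type and more RNA per cell cannot be told apart.

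Myh6 (ENSMUSG00000040752.15), the fast myosin heavy chain of the heart and the gene whose promoter drives the reporter, had 246, 222 and 195 TPM at day 21, against 44.4, 85.8 and 37 TPM at day 7. The groups did not overlap, and the lowest day 21 library was well above the highest day 7 library. The change was 2.06 ± 0.35 (adjusted p = 0.0253). Actc1 (ENSMUSG00000068614.7), the alpha actin of heart muscle, had 221, 269 and 268 TPM at day 21, against 25.2, 89.7 and 25 TPM at day 7. All day 21 libraries were high and alike, while day 7 replicate 2 stood above replicates 1 and 3. Its change was 2.68 ± 0.51 (adjusted p = 0.0448). Tcap (ENSMUSG00000007877.2), which caps titin at the Z disc, was low throughout, with 3.16, 2.45 and 3.79 TPM at day 21, against 0.447, 0.642 and 0.420 TPM at day 7, without overlap, and changed by 1.45 ± 0.25 (adjusted p = 0.0267).

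With 1 library left out in turn, Myh6 and Actc1 were called only without day 7 replicate 2, the highest library of its day, and reached adjusted p-values of 0.14 and 0.179 in the other fits. Tcap was called without day 21 replicate 2 or day 7 replicate 2 and reached 0.125 otherwise. A noncoding gene antisense to Myh6 overlaps it in GENCODE M21, so its reads may be shared.

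The promoters of the 2 most abundant called sarcomere genes are shown here as the 250 bases before the RefSeq start on GRCm38.p6, because the introduced factors act through short sites in such regions. Myh6 lies at chr14:54966608-54966857 and Actc1 at chr2:114052876-114053125, both read from the minus strand. Capitals mark matches, on either strand, to AGATAA (the GATA site), CTANNNNTAG (MEF2), AGGTGT (T-box), CATCTG (an E-box), TTNNGNAA (C/EBP), GAAANNGAAA (the interferon-stimulated response element) or the CArG box named for serum response factor.
Myh6: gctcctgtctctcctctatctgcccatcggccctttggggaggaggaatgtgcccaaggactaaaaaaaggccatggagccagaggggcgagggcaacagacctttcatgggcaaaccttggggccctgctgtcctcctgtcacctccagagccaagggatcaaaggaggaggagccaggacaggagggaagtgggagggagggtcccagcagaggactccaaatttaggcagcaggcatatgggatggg
Actc1: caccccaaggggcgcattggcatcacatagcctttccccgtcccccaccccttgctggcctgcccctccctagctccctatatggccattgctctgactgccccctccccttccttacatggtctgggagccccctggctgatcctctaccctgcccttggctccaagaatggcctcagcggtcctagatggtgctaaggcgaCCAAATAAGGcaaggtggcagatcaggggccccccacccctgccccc
The Myh6 window held none of these letters, and the Actc1 window held 1 CArG box, starting 47 bases before the start. Among the 28 sarcomere genes with a promoter in the table, 6 (21.4%) held the GATA letters, 4 (14.3%) the MEF2 letters and 5 (17.9%) a CArG box, while 3 (10.7%) held the T-box letters and 1 (3.57%) the E-box letters. The shares over all 27025 promoters of the same length were 10.3%, 3.23%, 1.40%, 12% and 14.5%. Among the 32 promoters of genes that rose, the GATA letters were in 4 (12.5%) and the MEF2 letters in 1 (3.12%). A match is a description of the letters and not a site of binding.

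Other sarcomere genes lay higher at day 21 without a call. Actn2, the alpha actinin of the Z disc, had 23.9, 27.5 and 20.5 TPM at day 21, against 2.58, 9.31 and 3.81 TPM at day 7, without overlap, and its change was 2.14 ± 0.46 (adjusted p = 0.0731). Myoz2, a calcineurin-binding protein of the Z disc, gave 2.02 ± 0.48 (adjusted p = 0.104) and Myom2 of the M band gave 1.56 ± 0.34 (adjusted p = 0.0773). Titin, encoded by Ttn, gave 1.18 ± 0.34 (adjusted p = 0.198), and the cardiac troponin T gene Tnnt2 gave 0.46 ± 0.36 (adjusted p = 0.743). In the other direction, Tnni1, the slow skeletal troponin I that the embryonic heart also uses, had 6.46, 4.68 and 5.98 TPM at day 21, against 29, 14.4 and 13.3 TPM at day 7. All its day 21 libraries lay below day 7, and the change was −1.49 ± 0.36 (adjusted p = 0.115). The summed level of the 37 sarcomere genes was 7469, 6393 and 7465 TPM at day 21, against 7120.4, 5436 and 3592 TPM at day 7, so day 7 replicate 3 was the lowest library and the days overlapped.

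Genes around the sarcomere moved less. In calcium handling, 17 of 21 tested genes lay above 0 with a median of 0.24 and none was called; the median was 0.08 without day 7 replicate 3. Trdn, which holds the calcium release complex in the sarcoplasmic reticulum, gave 1.31 ± 0.42 (adjusted p = 0.273) and Srl, a calcium-binding protein of the same membrane, gave 1.12 ± 0.36 (adjusted p = 0.266). In muscle energy supply, 13 of 15 lay above 0 (median 0.46, or 0.21 without day 7 replicate 3), also with no call, led by the muscle cytochrome oxidase subunits Cox6a2 (1.50 ± 0.44, adjusted p = 0.208) and Cox8b (1.36 ± 0.44, adjusted p = 0.281). Of cardiac transcription regulators, 8 of 24 lay above 0 and 16 below (median −0.09). Smyd1, a methyltransferase that myofibrils need, gave 1.10 ± 0.23 (adjusted p = 0.0688) there, while Nkx2-6 and Irx4 were at 0 TPM in all 6 libraries and Nkx2-5 stayed under 1 TPM. Nppa, the atrial natriuretic peptide, had 73, 22.2 and 9.90 TPM at day 21, against 13.4, 11.9 and 4.12 TPM at day 7, with overlapping days and a change of 1.43 ± 0.66 (adjusted p = 0.511). Skeletal muscle genes were mostly low, with 18 of 28 under 1 TPM in all 6 libraries and Myod1 at 0. All 10 that were tested lay above 0, with no call, a median of 0.43 (0.29 to 0.62 with 1 library left out) and Cav3, the caveolin of muscle, at 1.07 ± 0.22 (adjusted p = 0.0688). The summed level of the 28 was 84.0 to 108 TPM at day 21 against 45.4 to 101 TPM at day 7.

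The largest called rise at a pseudocount of 1 belonged to an acute-phase gene. Saa3 (ENSMUSG00000040026.8), a serum amyloid A protein made outside the liver under inflammation, had 261, 30.3 and 64.5 TPM at day 21, against 2.93, 4.15 and 2.36 TPM at day 7. Every day 21 library lay far above every day 7 library, although day 21 replicate 1 was several times replicates 2 and 3. The change was 4.32 ± 0.54 (adjusted p = 0.00315), and the call held with each of the 6 libraries left out, at adjusted p-values up to 0.0334. Fits of the 9 untreated GHMT libraries or of the 6 alone did not call Saa3 (adjusted p up to 0.169). At a pseudocount of 0.1 its change was 4.66 and that of Prl8a9 was larger, at 5.36. Reads of near-identical Saa genes may be shared.

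Complement and acute-phase genes lay higher as a list: 2 of 18 tested rose, none fell, 17 lay above 0 and 10 had no overlap with day 21 higher (10.8% of all genes tested). Their median change was 0.99, and it stayed between 0.84 and 1.18 with 1 library left out. Steap4 (ENSMUSG00000012428.9), a metalloreductase that is also induced in inflammation, had 14.7, 18.5 and 15.8 TPM at day 21, against 2.57, 6.92 and 3.01 TPM at day 7. Day 21 was higher in all libraries, and the change was 1.83 ± 0.29 (adjusted p = 0.0183); the call held only without day 7 replicate 2 and reached 0.102 without one of the others. The summed level of all 23 genes was 4620.0, 4308 and 4575 TPM at day 21, against 1674, 2415 and 2179 TPM at day 7, with no overlap. Of the 23, 4, Saa1 and Saa2 among them, stayed under 1 TPM in all 6 libraries.

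Better-known members of the list missed the threshold, with day 7 libraries that spread widely. Hp, which binds free haemoglobin, had 85.6, 42.4 and 66.3 TPM at day 21, against 2.31, 24.3 and 9.05 TPM at day 7, and its change was 2.74 ± 0.55 (adjusted p = 0.0518). Lcn2, which withholds iron from bacteria by binding their siderophores, had 127, 63.8 and 53.6 TPM at day 21, against 5.42, 17.2 and 18.7 TPM at day 7, and its change was 2.54 ± 0.54 (adjusted p = 0.0697). Both had day 7 replicate 1 as their lowest library and no overlap between days. The complement gene C4b gave 1.64 ± 0.35 (adjusted p = 0.0688). C7, a component of the membrane attack complex that is not in the list, was singled out after its values were seen, since it alone of the 64 kept its call in a fit of the 6 libraries alone. It had 4.48, 5.03 and 5.83 TPM at day 21, against 0.824, 0.926 and 1.02 TPM at day 7, closely grouped on both days, and a change of 1.66 ± 0.15 (adjusted p = 0.000148).

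The 250 bases before the Saa3 start, at chr7:46715677-46715926 of GRCm38.p6 on the minus strand, are shown because the gene led the called rises on this scale. Capitals mark the letters listed above.
Saa3: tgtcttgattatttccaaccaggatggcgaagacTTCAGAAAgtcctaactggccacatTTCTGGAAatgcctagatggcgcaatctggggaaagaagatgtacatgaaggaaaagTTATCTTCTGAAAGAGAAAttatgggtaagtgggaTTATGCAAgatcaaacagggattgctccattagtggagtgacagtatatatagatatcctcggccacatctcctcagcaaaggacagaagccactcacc
C/EBP letters started 216, 191, 129 and 99 bases before the start, an interferon-stimulated response element 125 bases before it, overlapping a C/EBP match, and GATA letters 134 bases before it. All 10 complement and acute-phase genes with a promoter in the table held the C/EBP letters, which 36.9% of all 27025 promoters hold. Among the 32 promoters of genes that rose, 14 (43.8%) held them.

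**Figure D2:**
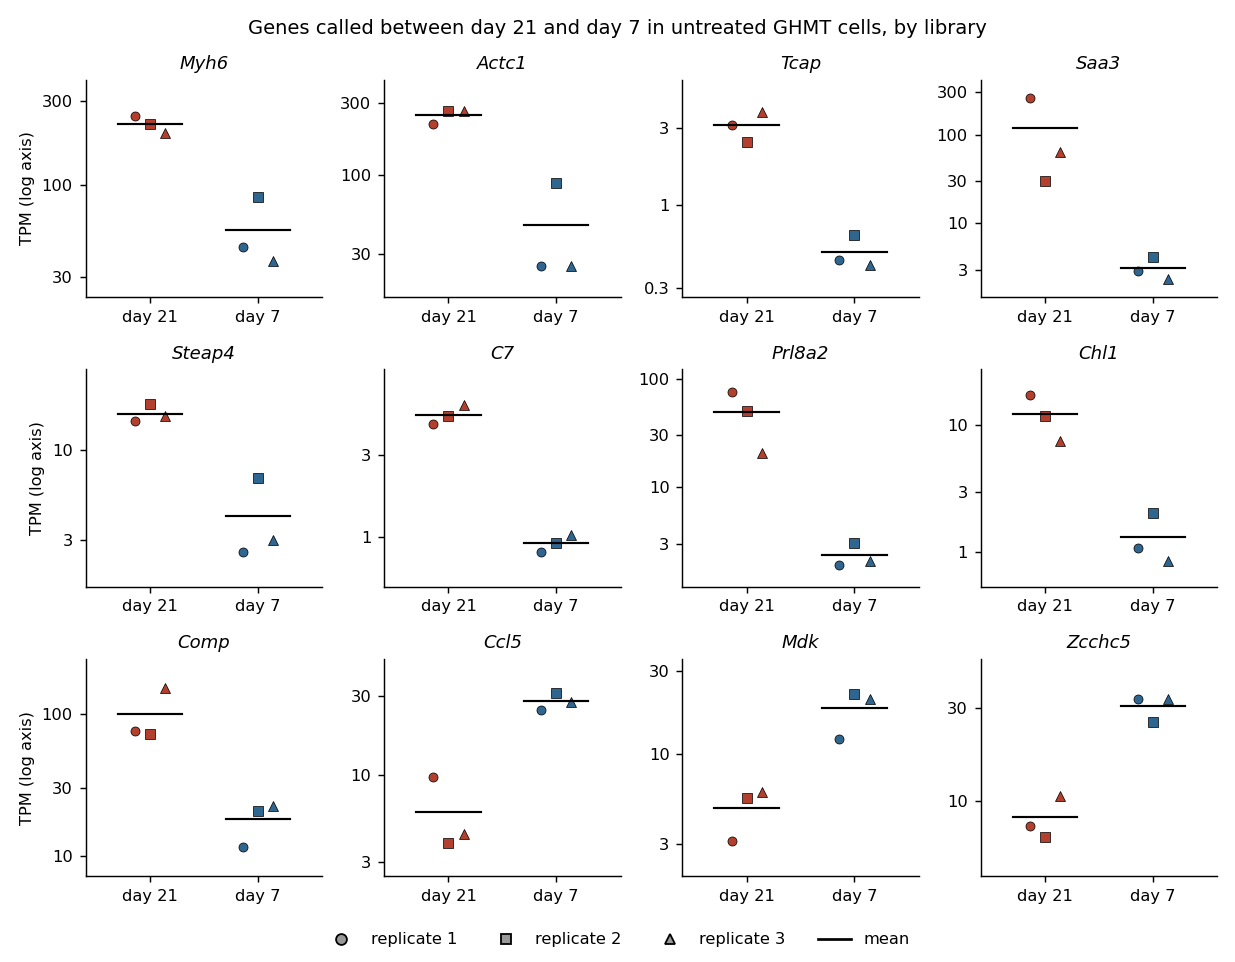
TPM on a log axis of 12 named genes in the 3 day 21 libraries (left) and the 3 day 7 libraries (right) of untreated GHMT cells; circle, square and triangle are replicates 1, 2 and 3 and the line is the mean. No panel has a day 21 point among the day 7 points, and Saa3 spreads most at day 21, where its replicates are 261, 30.3 and 64.5 TPM.

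Rises also included genes of cartilage, joint and matrix turnover, grouped here by known role after their values were seen. Comp (ENSMUSG00000031849.9), a cartilage and tendon matrix protein that responds to TGF-beta, had 75.7, 72.4 and 153 TPM at day 21, against 11.5, 20.6 and 22.7 TPM at day 7. Day 21 replicate 3 was far above replicates 1 and 2, and the days did not overlap. The change was 2.36 ± 0.40 (adjusted p = 0.0268). Prg4 (ENSMUSG00000006014.16), which encodes the joint lubricant lubricin, had 27, 25.3 and 26.4 TPM at day 21, against 3.34, 12.1 and 6.62 TPM at day 7, with day 21 tight and day 7 spread, and changed by 1.85 ± 0.34 (adjusted p = 0.0398). It overlaps Tpr in the annotation. Mmp13 (ENSMUSG00000050578.10), a collagenase of cartilage and bone, had 22.7, 8.24 and 8.35 TPM at day 21, against 0.554, 1.43 and 1.34 TPM at day 7, highest in day 21 replicate 1, and changed by 2.62 ± 0.49 (adjusted p = 0.0399). With 1 library left out, Comp was called only without day 21 replicate 2 or day 7 replicate 2 (up to 0.118 otherwise), Prg4 only without day 7 replicate 2 (up to 0.143), and Mmp13 in none of the 6 fits (up to 0.164).

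The lists around these genes held few calls. Mmp13 was the single call among 22 matrix proteases and inhibitors, of which 17 lay above 0 with a median of 0.29. Day 21 was above day 7 in every library for 6 of the 22 and below it for 3, against 10.8% and 6.83% of all genes tested. The summed level of all 24 was 4657, 4145 and 4188 TPM at day 21, against 3133, 3426 and 3509 TPM at day 7, without overlap. Mmp3, a stromelysin of wide range, had 379, 362 and 233 TPM at day 21, against 17.7, 84.5 and 89.1 TPM at day 7, and gave 2.60 ± 0.70 (adjusted p = 0.166) with its lowest value in day 7 replicate 1. Comp was the single call among 28 myofibroblast and TGF-beta response genes (21 above 0, median 0.18, or 0.10 without day 21 replicate 1 and 0.34 without day 7 replicate 1). Of 29 collagen genes tested none was called, 19 lay above 0 and the median was 0.26, or 0.12 without day 7 replicate 2, 0.13 without day 7 replicate 1 and 0.15 without day 21 replicate 1. Elastic fibre, proteoglycan and other matrix genes also had no call in 29 tested (18 above 0, median 0.17). Their summed level was 9707 to 10633 TPM at day 21 against 7930 to 8685 TPM at day 7, without overlap. Bone, cartilage and tendon genes had a median of 0.07, which ran to 0.24 without day 7 replicate 3, and no call. Their sum, 1362, 787 and 383 TPM at day 21, against 116, 302 and 496 TPM at day 7, overlapped between days and spread widely within each, with Spp1, the bone matrix protein osteopontin, at 1293, 723 and 306 TPM at day 21, against 57.3, 249.6 and 451 TPM at day 7.

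A pair of placental prolactin genes rose from near the limit of detection. Prl8a9 (ENSMUSG00000006490.2) had 43.1, 26.2 and 11.3 TPM at day 21, against 0.389, 0.964 and 0.259 TPM at day 7. Prl8a2 (ENSMUSG00000018259.12) had 76.1, 50.7 and 20.6 TPM at day 21, against 1.94, 3.10 and 2.11 TPM at day 7. Both were high in all day 21 libraries, highest in replicate 1 and lowest in replicate 3, and neither overlapped day 7. The changes were 4.02 ± 0.33 (adjusted p = 0.000113) and 3.72 ± 0.38 (adjusted p = 0.000595). A limma fit of the 6 libraries alone called neither gene (adjusted p = 0.0695 and 0.0727). The errors above pool the spread over all 18 GHMT libraries, and both genes were low in the DMSO-treated ones. Such libraries add little spread, so these p-values may be smaller than the untreated libraries alone would give. Prl8a2 was called with each library left out (up to 0.00672), whereas Prl8a9 passed the 1 TPM filter only through the 3 day 21 libraries and could not be tested without any 1 of them. The family members are similar in sequence, so their reads may be shared. The prolactin family list holds Prl8a9 but not Prl8a2, and 7 of its 11 genes stayed under 1 TPM in all 6 libraries.

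Other rises, likewise grouped after their values were seen, were of genes best known from the nervous system or the germ line. Chl1 (ENSMUSG00000030077.11), an L1-family adhesion molecule of neurons, had 17.3, 11.8 and 7.52 TPM at day 21, against 1.08, 2.04 and 0.852 TPM at day 7, and changed by 2.47 ± 0.26 (adjusted p = 0.000595). Nfasc (ENSMUSG00000026442.14), the adhesion protein neurofascin of axon segments, had 11.1, 18.2 and 11.5 TPM at day 21, against 1.02, 3.10 and 1.65 TPM at day 7, and changed by 2.35 ± 0.28 (adjusted p = 0.00203). Neither gene overlapped between days, and both kept their calls with each library left out, at up to 0.00672 and 0.0185. A limma fit of the 6 libraries alone called neither (adjusted p = 0.102 and 0.103). Chl1 reached 1 TPM in only 2 GHMT libraries outside untreated day 21, so it was tested only through the group where it was high. Of 20 neuronal and glial markers, 12 stayed under 1 TPM in all 6 libraries, Rbfox3, Sox10 and Gfap among them, and the summed level was 147 to 179 TPM at day 21 against 133 to 224 TPM at day 7. Gtsf1 (ENSMUSG00000022487.14), a cofactor of the piRNA pathway that silences transposons in the germ line, had 5.39, 9.37 and 16.7 TPM at day 21, against 0.352, 1.14 and 0.183 TPM at day 7, without overlap. It changed by 2.81 ± 0.40 (adjusted p = 0.00921), and its call was lost without day 7 replicate 1 or 3 (up to 0.0705).

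Rises in secreted proteins and enzymes were spread over several functions. Cxcl14 (ENSMUSG00000021508.10), a chemokine that tissues make without infection, had 14.2, 10.6 and 10.1 TPM at day 21, against 4.24, 3.30 and 2.88 TPM at day 7. Its groups lay well apart, the change was 1.50 ± 0.16 (adjusted p = 0.000595), and it kept its call with each library left out (up to 0.00672). Igfbp2 (ENSMUSG00000039323.18), which binds insulin-like growth factors, had 198, 101 and 118 TPM at day 21, against 59.4, 42.5 and 49 TPM at day 7, with day 21 replicate 1 highest. Its change was 1.40 ± 0.22 (adjusted p = 0.0183), lost without day 7 replicate 2 or 3 (up to 0.0842). Kng1 (ENSMUSG00000022875.17), the kininogen from which bradykinin is cut, had 9.68, 5.06 and 6.08 TPM at day 21, against 0.836, 2.09 and 0.751 TPM at day 7. Its change was 1.84 ± 0.27 (adjusted p = 0.0111), lost without day 21 replicate 1 or day 7 replicate 1 or 3 (up to 0.0741), and a related kininogen gene may share its reads.

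Inmt, an N-methyltransferase of indoles and other amines, had 19.2, 29.8 and 28.1 TPM at day 21, against 0.503, 6.75 and 3.88 TPM at day 7, and Reg3g, an antibacterial lectin, had 7.93, 14.9 and 2.64 TPM at day 21, against 0.576, 2.01 and 0.270 TPM at day 7. Day 7 replicate 2 was the highest of its day for both, yet below all of day 21. Their changes were 2.77 ± 0.47 (adjusted p = 0.0268) and 2.14 ± 0.40 (adjusted p = 0.0418). Inmt was called only without day 7 replicate 2 (up to 0.0932 otherwise) and Reg3g only without day 21 replicate 3 or day 7 replicate 2 (up to 0.179). Mir7041, a microRNA entry far shorter than messenger RNA, had 3.40, 24.2 and 9.92 TPM at day 21 and is listed at 0 in all 3 day 7 libraries, so no fold is given. It was called only without day 21 replicate 1 (up to 0.143).

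Further calls concerned metal, oxidant and lipid handling. Slc39a14, an importer of zinc and iron, had 96.9, 65.7 and 61.9 TPM at day 21, against 34, 31.2 and 38.4 TPM at day 7, and its change was 1.07 ± 0.19 (adjusted p = 0.033). Sod3, the extracellular superoxide dismutase, had 9.38, 6.77 and 9.88 TPM at day 21, against 2.91, 3.05 and 2.43 TPM at day 7, and its change was 1.34 ± 0.22 (adjusted p = 0.0233). Abcg1, a cholesterol exporter, had 10.3, 5.08 and 4.87 TPM at day 21, against 1.49, 2.30 and 2.26 TPM at day 7, and its change was 1.31 ± 0.25 (adjusted p = 0.0415). None of the 3 overlapped between days. Slc39a14 and Abcg1 lost their calls with any library left out (up to 0.138 and 0.148), and Sod3 kept its call only without day 21 replicate 2 or day 7 replicate 2 (up to 0.119). The metallothionein Mt2, which binds zinc and copper, had 408, 415 and 353 TPM at day 21, against 123, 155 and 234 TPM at day 7, without overlap, but its change was 1.24 ± 0.37 (adjusted p = 0.229). The summed level of 11 metallothionein and zinc transport genes was 973, 1168 and 990.0 TPM at day 21, against 408, 559 and 609.9 TPM at day 7. Antioxidant genes of the NRF2 response lay above 0 in 23 of 28 (median 0.22), with Sod3 the single call, and lysosomal genes in 27 of 31 (median 0.23, or 0.14 without day 21 replicate 1 and 0.13 without day 7 replicate 3), with no call.

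The 10 falls included a chemokine, a growth factor and an imprinted RNA. Ccl5 (ENSMUSG00000035042.2), a chemokine for T cells that interferon can induce, had 9.77, 3.94 and 4.44 TPM at day 21, against 24.6, 31.3 and 27.6 TPM at day 7. Every day 21 library lay below every day 7 library, and the change was −2.12 ± 0.34 (adjusted p = 0.0218). Zcchc5 (ENSMUSG00000047686.9), a zinc finger gene derived from a retrotransposon, had 7.51, 6.59 and 10.7 TPM at day 21, against 33.5, 25.5 and 33.3 TPM at day 7. Its groups were far apart, the change was −1.79 ± 0.23 (adjusted p = 0.00416), and the call held with each library left out (up to 0.0419). Mdk (ENSMUSG00000027239.14), the heparin-binding growth factor midkine of embryonic tissue, had 3.14, 5.53 and 6.04 TPM at day 21, against 12.2, 22.1 and 20.9 TPM at day 7, without overlap, and its change was −1.71 ± 0.31 (adjusted p = 0.033). With 1 library left out, Ccl5 kept its call only without day 21 replicate 1 (up to 0.0908 otherwise) and Mdk only without day 7 replicate 1 (up to 0.157).

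The remaining named falls were smaller. Slc38a4, an imprinted amino acid transporter, had 2.02, 2.47 and 3.60 TPM at day 21, against 8.53, 8.10 and 9.87 TPM at day 7 (change −1.43 ± 0.25, adjusted p = 0.0282). Marcksl1, a regulator of the actin cytoskeleton, had 11.8, 14.2 and 10.5 TPM at day 21, against 25, 24.4 and 26.5 TPM at day 7 (change −1.01 ± 0.17, adjusted p = 0.0268). Mirg, a noncoding RNA of the imprinted Dlk1-Dio3 region that hosts microRNAs, had 30.1, 38.4 and 43.6 TPM at day 21, against 66.7, 59.3 and 76.7 TPM at day 7 (change −0.85 ± 0.16, adjusted p = 0.0414). For all 3 genes the highest day 21 library lay below the lowest day 7 library. Ska2, part of the complex that couples kinetochores to spindle microtubules, had 8.14 ± 0.729 TPM at day 21 and 14.1 ± 0.816 TPM at day 7 (SD, n = 3 each), a change of −0.73 ± 0.12 (adjusted p = 0.0248), and an antisense partner in the annotation. Armcx6 had 3.83 ± 1.19 TPM at day 21 and 7.65 ± 0.802 TPM at day 7, a change of −0.87 ± 0.17 (adjusted p = 0.0439). Ska2 and Armcx6 lost their calls with any library left out (up to 0.113 and 0.168). Slc38a4 was called only without day 21 replicate 3 (up to 0.142), Marcksl1 only without day 21 replicate 2 (up to 0.137) and Mirg only without day 7 replicate 2 (up to 0.171).

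Interferon response genes lay lower at day 21 without any single call by limma, although 28 of 35 had an unadjusted p under 0.05. Of all genes tested, 3.6% were lower at that level. Type I interferon is an alarm signal for foreign nucleic acid, and its targets block viral replication and sense RNA. Of 35 target genes tested, 33 lay below 0 and 24 had all day 21 libraries below all day 7 libraries, against 6.83% of all genes. The median change was −0.86 and stayed between −1.14 and −0.56 with 1 library left out. The summed level of the 35 genes was 4819.8, 2159 and 3513 TPM at day 21, against 5286, 6337 and 7577 TPM at day 7, without overlap but with day 21 replicate 1 close to day 7 replicate 1. Ifit1, which binds foreign RNA ends, had 362, 117 and 221 TPM at day 21, against 452, 475 and 526 TPM at day 7, and gave −1.19 ± 0.45 (adjusted p = 0.384). Irf7, the factor that amplifies the response, had 199.9, 92.3 and 162 TPM at day 21, against 349.6, 403 and 443 TPM at day 7, and gave −1.46 ± 0.33 (adjusted p = 0.0888). In both genes day 21 replicate 2 was lowest. Cmpk2 and Oasl1, the members with the smallest adjusted p, gave −1.90 ± 0.42 (adjusted p = 0.0759) and −2.05 ± 0.45 (adjusted p = 0.0759), and the chemokine Cxcl10 had 21.4, 4.44 and 12.9 TPM at day 21, against 66.2, 46.8 and 146 TPM at day 7 (change −2.71 ± 0.54, adjusted p = 0.0541). Cxcl10, Irf7 and Oasl1 overlap other annotated genes.

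The promoter of Ifit1 is shown as the contrast to that of Saa3, at chr19:34640639-34640888 of GRCm38.p6 on the plus strand, with the same letters in capitals.
Ifit1: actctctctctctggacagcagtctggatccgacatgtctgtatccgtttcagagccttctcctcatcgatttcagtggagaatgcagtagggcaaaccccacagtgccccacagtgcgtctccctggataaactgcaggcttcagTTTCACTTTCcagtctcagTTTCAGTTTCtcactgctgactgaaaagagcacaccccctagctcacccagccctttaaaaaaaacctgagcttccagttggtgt
Interferon-stimulated response elements started 104 and 85 bases before the start. Of the 25 interferon target genes with a promoter in the table, 11 (44%) held this element, against 3.04% of all 27025 promoters and 4 of the 32 promoters of genes that rose. None of the 6 promoters of genes that fell held it.

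Antigen presentation followed the same direction. Of 26 genes for MHC class I and interferon-inducible GTPases, 25 lay below 0 and 10 had no overlap with day 21 lower, at a median of −0.73, with no call and 15 at an unadjusted p under 0.05. Of all genes tested, 6.83% were lower without overlap and 3.6% lower at that unadjusted p. Tap1, which pumps peptides to MHC class I, gave −0.57 ± 0.14 (adjusted p = 0.122), and Igtp, a GTPase that attacks vacuoles of intracellular parasites, gave −1.37 ± 0.35 (adjusted p = 0.136). Of chemokines and cytokines as a list, Ccl5 fell and Cxcl14 rose among 23 tested, 13 lay above 0, and the median of 0.15 turned to −0.00 without day 7 replicate 2.

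Cell division genes lay lower at day 21, and the size of the difference rested largely on 1 library. All 32 genes of mitosis lay below 0 with a median of −1.11, or −0.58 without day 7 replicate 3. None was called by limma, 6 had no overlap and 23 had an unadjusted p under 0.05, against 6.83% and 3.6% of all genes in that direction. Their summed level was 108, 171 and 93.4 TPM at day 21, against 142, 249 and 594 TPM at day 7: day 7 replicate 3 was far above the other 5 libraries, and day 21 replicate 2 was above day 7 replicate 1. Ccnb1, the mitotic cyclin B1, had 1.98, 4.98 and 0.902 TPM at day 21, against 2.88, 9.43 and 31.5 TPM at day 7, with overlapping days and a change of −1.76 ± 0.63 (adjusted p = 0.351). Aurka, the centrosomal kinase of mitosis, and Kif11, the motor that separates spindle poles, gave −1.22 ± 0.38 (adjusted p = 0.25) and −1.44 ± 0.49 (adjusted p = 0.316). Replication genes lay below 0 in 28 of 31 with a median of −0.43, or −0.15 without day 7 replicate 3. Ribosomal protein genes lay below 0 in 36 of 37 by a small and even amount (median −0.19). Of these, 19 had no overlap and 7 an unadjusted p under 0.05, against the same shares of all genes, and none was called.

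Markers of cell types that the cultures could also hold were measured as whole lists, and their part in the results above was not tested. Macrophage and leukocyte markers had a summed level of 171, 419 and 79.7 TPM at day 21, against 182, 495 and 73.4 TPM at day 7. Replicate 2 was the highest and replicate 3 the lowest at both days, none of 19 tested genes was called or separated the days, and the median of −0.13 moved between −0.74 and 0.45 with 1 library left out. Lyz1 and Cd163 stayed under 1 TPM. Endothelial markers summed to 159.9, 166 and 176 TPM at day 21, against 100.3, 107 and 112 TPM at day 7, without overlap. None of 11 tested was called, 9 lay above 0 (median 0.20, or 0.12 without day 21 replicate 2), and the sum rested largely on Flt1, a VEGF receptor, with 104, 102 and 127 TPM at day 21, against 63.6, 57.8 and 54 TPM at day 7. Pecam1, Tie1 and Erg stayed under 1 TPM and Cldn5 and Sox17 were at 0 in all 6 libraries. Epicardial and mesothelial markers summed to 785, 593 and 486 TPM at day 21, against 348, 395 and 312 TPM at day 7, without overlap. Of 15 tested none was called and 13 lay above 0 (median 0.52), with Msln, the surface protein mesothelin, at 560.0, 389.8 and 271 TPM at day 21, against 198, 204 and 194 TPM at day 7 (0.97 ± 0.21, adjusted p = 0.0732). Epithelial markers were nearly absent: 11 of 12 stayed under 1 TPM in all 6 libraries, and the sum was 1.46 to 1.94 TPM at day 21 against 1.28 to 2.09 TPM at day 7.

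**Figure D3:**
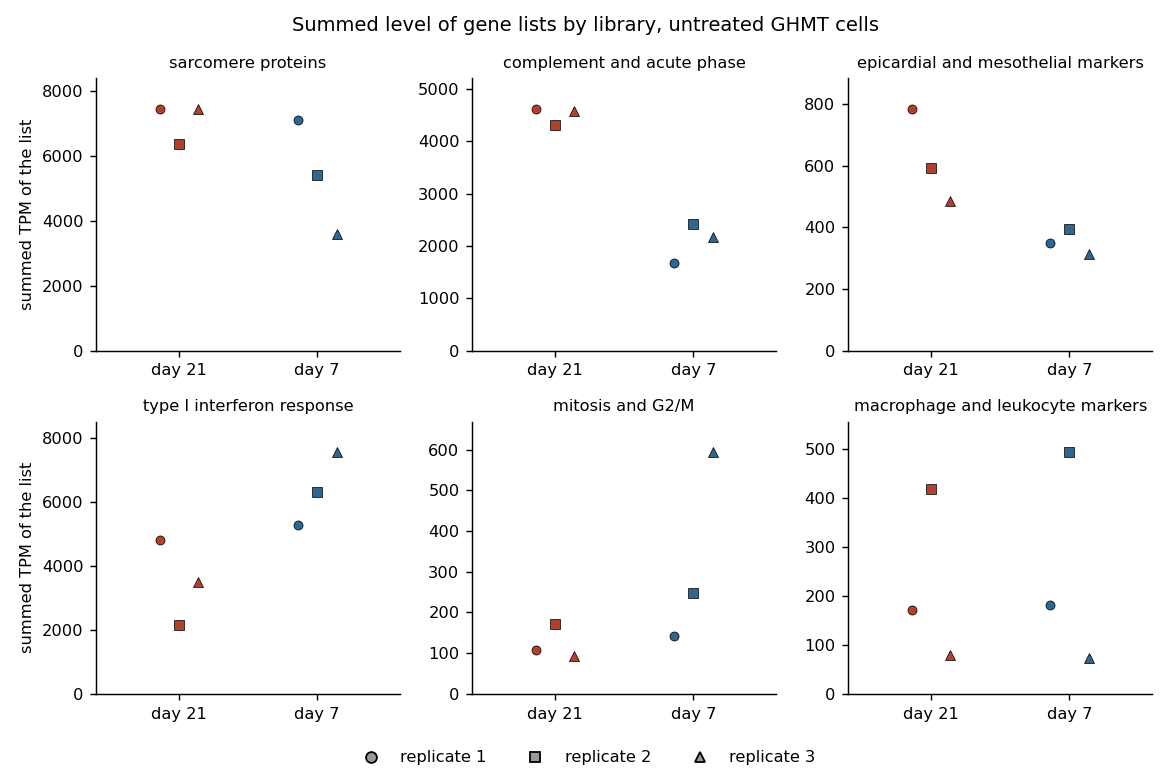
Summed TPM of 6 gene lists in each of the 6 untreated GHMT libraries, day 21 left and day 7 right, with axes from 0. Acute-phase, interferon and epicardial sums do not overlap between days, the sarcomere sums do, the mitosis sum is set apart by day 7 replicate 3, and the macrophage sum goes with the replicate number.

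**Figure D4:**
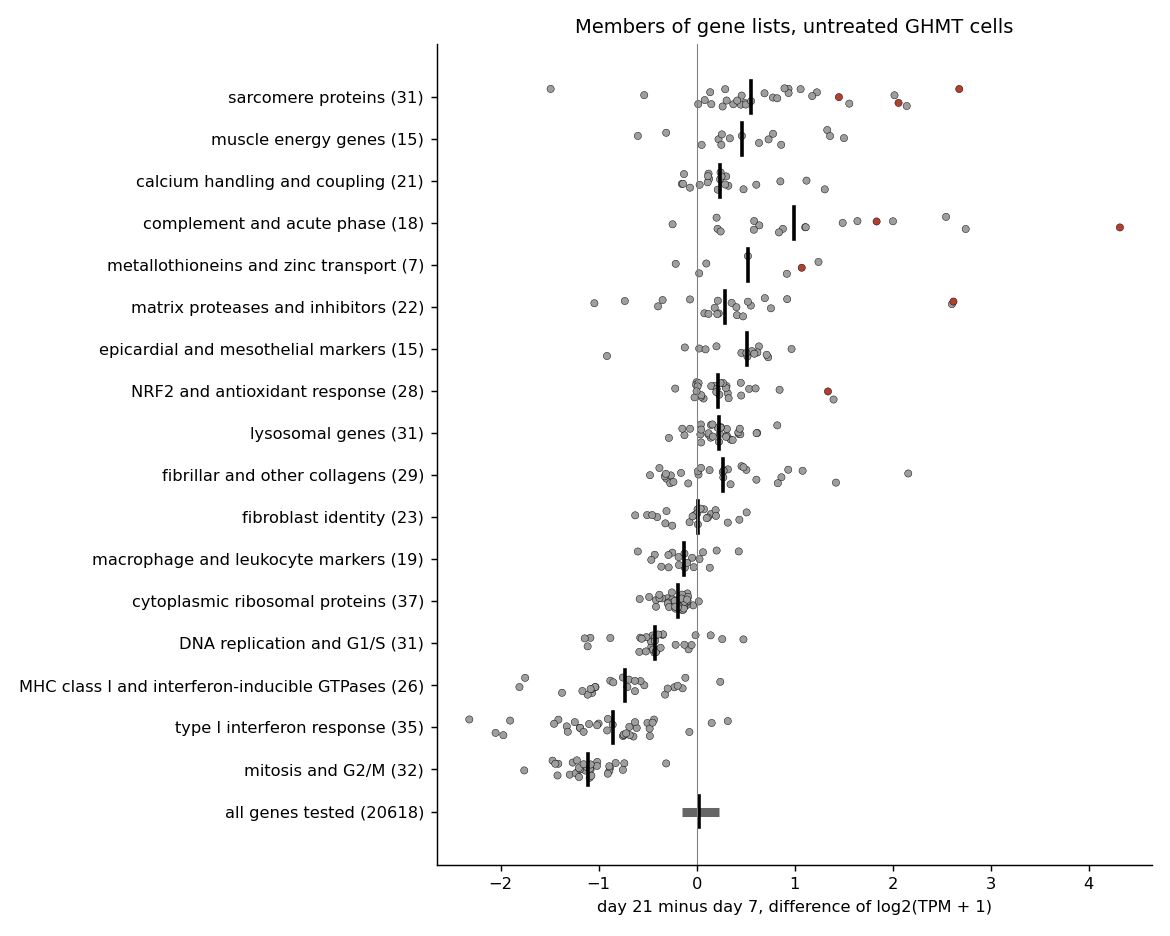
Change from day 7 to day 21 on the log2(TPM + 1) scale for each tested member of 17 gene lists, with called members in red, the median as a black bar, and all genes tested in the last row with their quartiles as a grey bar. The complement and acute-phase list lies farthest above 0, the mitosis and interferon lists farthest below, and neither of the last 2 holds a called gene; the medians of these 3 lists kept their sign under every alternative run.

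Lists of metabolism gave few calls. Insulin-like growth factor genes had Igfbp2 as the single call of 17 (median −0.15), with the imprinted pair of the growth factor Igf2 and the noncoding RNA H19 at −0.63 ± 0.27 (adjusted p = 0.48) and −0.76 ± 0.21 (adjusted p = 0.177). Of the 17, 5 had day 21 below day 7 in every library and 2 above, against 6.83% and 10.8% of all genes tested. Their summed level was 3571, 4241 and 4591 TPM at day 21, against 4759, 5472 and 5890 TPM at day 7, without overlap. Lipid transport had Abcg1 as the single call of 17. Fatty acid oxidation, glycolysis and cholesterol biosynthesis genes had no call in 20, 25 and 25 tested. Nuclear genes of oxidative phosphorylation had a median of 0.01 over 46 tested, which lay below 0 under median ratio scaling. Fibroblast identity genes (23 tested) and TGF-beta and BMP pathway genes (32 tested) likewise had no call and medians of 0.01 and 0.01, also below 0 under that scaling.

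Levels at day 2, which entered the fit but not this comparison, place the 2 days on a longer course. Over days 2, 7 and 21 the mean of Myh6 was 0.793 ± 0.304, 55.7 ± 26.3 and 221 ± 25.2 TPM (SD, n = 3 each). Saa3 had 1.32 ± 0.646, 3.15 ± 0.916 and 118 ± 124 TPM on the same days, low on both earlier days. Zcchc5 had 121 ± 31.9, 30.8 ± 4.56 and 8.26 ± 2.15 TPM, and Mdk had 36.5 ± 8.09, 18.4 ± 5.40 and 4.90 ± 1.55 TPM. Both were at their highest mean at day 2.

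The same interval was available in GHMT cells kept with 1% DMSO, in other libraries. Of the 64 genes, 61 (95.3%) changed with the same sign there, against 67.1% of all 20618 genes, and 26 (40.6%) were called there, against 0.577% of all genes. Both changes came from the same fit and share each gene's estimate of spread. The calls in the DMSO-treated cells are therefore not independent of those in untreated cells. Of the 54 that rose, 18 also rose in DMSO-treated cells, and of the 10 that fell, 8 also fell. In the DMSO-treated cells Myh6 averaged 971 and 319.7 TPM at days 21 and 7 and changed by 1.59 ± 0.35 (adjusted p = 0.0552). Actc1 averaged 417 and 99.3 TPM and changed by 2.26 ± 0.51 (adjusted p = 0.059), and Tcap averaged 8.86 and 1.10 TPM and changed by 2.22 ± 0.25 (adjusted p = 0.00141). Ccl5 and Mdk changed by −2.35 ± 0.34 (adjusted p = 0.00944) and −1.73 ± 0.31 (adjusted p = 0.0249).

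The difference between the untreated and the DMSO-treated change was tested itself and was called for 1 gene of 20618 (0.00485%), with 673 at an unadjusted p under 0.05. That gene was Prl8a9, which averaged 0.0247 and 0 TPM at days 21 and 7 with DMSO and was tested only because the untreated day 21 libraries, where it was high, passed the filter. The untreated change exceeded the DMSO-treated one by 3.99 ± 0.47 (adjusted p = 0.0105). Prl8a2 averaged 1.20 and 0.254 TPM with DMSO, and its difference was 2.96 ± 0.54 (adjusted p = 0.169). Saa3 averaged 3.34 and 1.86 TPM with DMSO, a change of 0.65 ± 0.54 (adjusted p = 0.569), and its difference was 3.67 ± 0.77 (adjusted p = 0.405). Chl1 averaged 0.584 and 0.545 TPM with DMSO, and its difference was 2.46 ± 0.37 (adjusted p = 0.089). The Prl8a9 call was lost without day 7 replicate 1 or 3 of the untreated cells, and without day 21 replicate 2 or day 7 replicate 1 or 3 of the DMSO-treated cells (up to 0.0599). It was also lost at a pseudocount of 0.1 (adjusted p = 0.183) and with a filter at 5 TPM (adjusted p = 0.246). The count of called differences depended on single DMSO-treated libraries: it was 13 higher and 2 lower, with 1858 genes at an unadjusted p under 0.05, without DMSO day 21 replicate 1, the next lowest in correlation. It was 2 higher and 1 lower without DMSO day 21 replicate 3, and 0 without DMSO day 7 replicate 1.

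Uninfected fibroblasts over the same days gave the course of a culture without infection or factors. They were deposited in a separate table, so factors, infection and table cannot be told apart in differences from them. Of the 46 called genes that were also tested there, 36 (78.3%) changed with the same sign, against 47.0% of the 18796 genes tested in both, and 7 were called, against 1.18% of all. Of the 54 that rose 3 of 36 tested also rose there, and of the 10 that fell 4 also fell. Those 4 were Zcchc5 (−1.37 ± 0.12, adjusted p = 8.84e-05), Mdk (−2.23 ± 0.18, adjusted p = 4.49e-05), Slc38a4 (−1.40 ± 0.20, adjusted p = 0.00515) and Marcksl1 (−1.02 ± 0.17, adjusted p = 0.0128). Comp also rose there, by 1.24 ± 0.17 (adjusted p = 0.00514). Ccl5 gave −0.72 ± 0.25 (adjusted p = 0.198) and Saa3 0.61 ± 0.50 (adjusted p = 0.558).

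The difference between the change in GHMT and in uninfected cells was called for 38 of 22264 genes (0.171%), 36 of them higher in GHMT cells (0.162%). Of the 54 genes that rose in GHMT cells, 19 (35.2%) were called in this difference. None of the 10 that fell was called in it, which does not show that both kinds of cells changed alike. The median difference over all genes was 0.12, and −0.03 under median ratio scaling. The GHMT change exceeded the uninfected one for Prl8a9 by 4.02 ± 0.34 (adjusted p = 1.16e-07), Prl8a2 by 3.72 ± 0.39 (adjusted p = 6.47e-06) and Chl1 by 2.42 ± 0.29 (adjusted p = 5.67e-05). Prl8a9 passed the filter of this fit only through the untreated day 21 GHMT libraries, where it was high, so its p-value is no separate support. Chl1 reached 1 TPM in 2 GHMT libraries outside untreated day 21. Of the sarcomere genes 4 were called, namely Myh6 (2.33 ± 0.39, adjusted p = 0.00633), Actc1 (2.73 ± 0.54, adjusted p = 0.0271), Tcap (1.50 ± 0.27, adjusted p = 0.0136) and Actn2 (2.70 ± 0.51, adjusted p = 0.0198). Myh6 averaged 0.0843 and 0.324 TPM at days 21 and 7 of uninfected cells. The spread behind these errors was pooled over all 36 libraries, including the uninfected ones with and without DMSO. For a gene near 0 there, such libraries add little spread. Its p-value may then be smaller than the GHMT libraries alone would give. Smyd1 differed by 1.34 ± 0.25 (adjusted p = 0.0163), Inmt by 2.75 ± 0.52 (adjusted p = 0.0198), Gtsf1 by 2.86 ± 0.42 (adjusted p = 0.00126), Kng1 by 1.92 ± 0.30 (adjusted p = 0.00298) and Saa3 by 3.71 ± 0.76 (adjusted p = 0.0346). Pmvk, an enzyme of the mevalonate pathway, and Rdh11, a retinol dehydrogenase, were the 2 genes called lower, at −1.29 ± 0.28 (adjusted p = 0.0446) and −0.95 ± 0.19 (adjusted p = 0.0271). Pmvk changed by −0.04 ± 0.19 (adjusted p = 0.974) in GHMT cells and by 1.25 ± 0.20 (adjusted p = 0.0105) in uninfected cells, and Rdh11 by −0.37 ± 0.14 (adjusted p = 0.378) and 0.58 ± 0.13 (adjusted p = 0.0513).

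Of these differences, those of Myh6, Prl8a2, Gtsf1, Chl1 and Kng1 were called with any of the 12 libraries left out, at adjusted p-values up to 0.0344, 0.000122, 0.00813, 0.000523 and 0.0192. These fits pooled the spread over the uninfected libraries in the same way, so they do not test that limit. Chl1 reached 1 TPM in only 2 GHMT libraries outside untreated day 21, so these fits are no separate support for it. Tcap was lost without GHMT day 7 replicate 3 or uninfected day 7 replicate 2 (up to 0.0585), and Smyd1 without GHMT day 21 replicate 1 or day 7 replicate 1 or 3 (up to 0.0689). Inmt was lost without GHMT day 21 replicate 2 or 3, uninfected day 21 replicate 1 or uninfected day 7 replicate 2 (up to 0.0858). Actc1 was called only without GHMT day 7 replicate 2 (up to 0.0965 otherwise). Saa3 was called only without GHMT day 21 replicate 2, GHMT day 7 replicate 2, uninfected day 21 replicate 1 or uninfected day 7 replicate 3 (up to 0.124). Rdh11 was called only without GHMT day 7 replicate 2, uninfected day 21 replicate 2 or 3 or uninfected day 7 replicate 1 (up to 0.12), and Pmvk only without GHMT day 7 replicate 2 or uninfected day 21 replicate 3 (up to 0.19). The count of genes called higher was 12 without GHMT day 7 replicate 3 and 17 without uninfected day 21 replicate 1. At a pseudocount of 0.1 the differences of Myh6 (adjusted p = 0.138), Chl1 (adjusted p = 0.0872), Kng1 (adjusted p = 0.149), Saa3, Inmt, Actc1, Tcap, Smyd1, Pmvk and Rdh11 were not called.

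Gene lists could be set side by side over the 3 arms as medians of their own changes. The sarcomere list had medians of 0.55 in untreated GHMT, 0.55 in DMSO-treated GHMT and 0.12 in uninfected cells, and the interferon list had −0.86, −1.31 and −0.26 in the same order. The acute-phase list had 0.99, 0.36 and 0.45, and the mitosis list −1.11, −1.51 and 0.08. All genes tested had medians of 0.02, −0.09 and −0.09. Cholesterol biosynthesis genes had −0.22, −0.37 and 1.12, and the median in untreated GHMT cells was 0.02 without day 7 replicate 3. GHMT and uninfected cells were deposited in separate tables, so their levels were not compared.

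**Figure D5:**
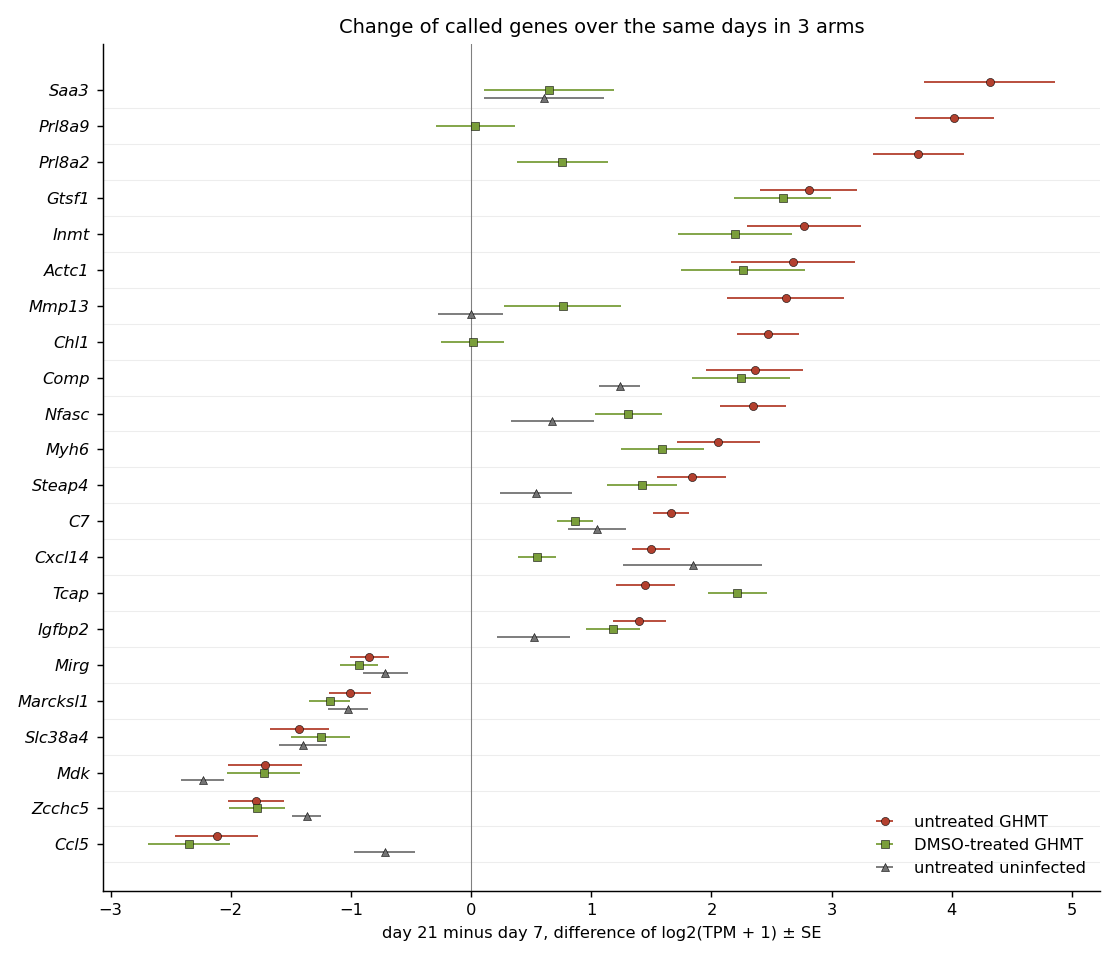
Change from day 7 to day 21 (log2(TPM + 1) scale, with its standard error) of 22 named genes in untreated GHMT cells (red circles), DMSO-treated GHMT cells (green squares) and untreated uninfected cells (grey triangles, absent where the gene was not tested). Prl8a9 separates the untreated from the DMSO-treated cells by 3.99, whereas Mdk and Zcchc5 lie on the same side of 0 in all 3 arms.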

How the data were processed

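RNA was measured per the labels' protocols from lysed plates with a TruSeq RNA kit, which was applied to total RNA. The submitters' processing notes name kallisto, Trimmomatic and FastQC. The authors deposited TPM per Ensembl gene, 1 table for each arm, per the file headers. The sources used here do not state the genome build, annotation or strand use, so values of overlapping and near-identical genes are uncertain. Of 50698 entries, 97 name no gene (0.849 to 3.32% of TPM in the 6 libraries) and were left out. TPM is scaled to a fixed sum, so abundant noncoding RNA moves all other values; 7SL RNA held 13.2 to 18.6%.

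Genes were kept where 3 or more libraries of the GHMT table reached 1 TPM, and analysed as log2(TPM + 1). A model with 1 mean per group over 18 libraries (12 residual degrees of freedom) was fitted with limma 3.58.1 and a mean-variance trend in R 4.3.3. It was also run on simulated data with equal spread in all groups and changes planted only in genes of higher mean. That run does not cover low genes or groups of unequal spread. Differences from uninfected cells came from 1 fit over 36 libraries (24 residual degrees of freedom). Changes within uninfected cells came from a fit of their own table, DMSO-treated libraries included. Tests were two-sided, adjusted by Benjamini and Hochberg over all genes tested, and called at an adjusted p under 0.05.

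The named genes were the 4 factors and Myh6, the 15 largest called rises and falls with a mean of at least 5 TPM, no overlap and no predicted symbol, the 5 largest differences each way, and from each of 45 lists up to 3 called members each way or, with none, its first 2 by adjusted p. Other genes named, C7, Actn2, Hp, Lcn2 and Ifit1 among them, were chosen after their values were seen. Members, lists and tests were chosen with earlier results of these data known. Gene lists are described by counts and medians. Promoters, the 250 bases before a start, and their build are RefSeq's; gene overlaps were read from GENCODE M21. Alternatives were pseudocounts of 0.1 and 5, filters, scalings, smaller fits, a replicate block and each library left out.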

Additional observations from a re-analysis of the deposited data

Results flagged for a closer look

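The change over time differed between arms for the genes below, each by a test of the difference itself. Between untreated and DMSO-treated GHMT cells it was Prl8a9, by 3.99 ± 0.47 (adjusted p = 0.0105). This call was lost in 5 of the 9 fits with 1 library left out where the gene was tested, at a pseudocount of 0.1 and with a filter at 5 TPM. The gene passed the 1 TPM filter only through the untreated day 21 libraries.

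Between GHMT and uninfected cells, the change was higher in GHMT cells for Prl8a9 (4.02), Prl8a2 (3.72), Saa3 (3.71), Gtsf1 (2.86), Inmt (2.75), Actc1 (2.73), Chl1 (2.42), Myh6 (2.33), Kng1 (1.92), Tcap (1.50) and Smyd1 (1.34), and lower for Pmvk (−1.29) and Rdh11 (−0.95). Pmvk changed by −0.04 ± 0.19 (adjusted p = 0.974) in GHMT cells and by 1.25 ± 0.20 (adjusted p = 0.0105) in uninfected cells. Myh6, Prl8a2, Gtsf1, Chl1 and Kng1 were called in all 12 fits with 1 library left out, but at a pseudocount of 0.1 Myh6, Chl1 and Kng1 were not. Chl1 reached 1 TPM in only 2 GHMT libraries outside untreated day 21. Prl8a9 was called in the 9 fits where it was tested. All 9 kept the untreated day 21 GHMT libraries through which it passed the filter. Each of the 12 fits pooled the spread over uninfected libraries as well. Tcap was called in 10, Smyd1 in 9, Inmt in 8, Saa3 and Rdh11 in 4, Pmvk in 2 and Actc1 in 1, with adjusted p-values up to 0.0585, 0.0689, 0.0858, 0.124, 0.12, 0.19 and 0.0965 in that order of genes.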

How the results depend on the processing

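Counts of calls for day 21 against day 7 (54 higher, 10 lower) depended on the size of the fit and the pseudocount. They were 11 and 5 with the 6 libraries alone, 14 and 4 with the 9 untreated GHMT libraries, 17 and 5 at a pseudocount of 0.1, 108 and 15 at 5, 23 and 7 with a 5 TPM filter, and 98 and 21 with the replicate number as a block. With 1 library left out they were 10 to 53 and 1 to 4, lowest without day 7 replicate 3, and 9 of the 64 genes were called in all 6 such fits and 10 in none. Same-numbered libraries of the 2 days deviated with correlations of 0.08, 0.15 and −0.04, so the numbers were not taken to pair them: not every library correlated best with its own number, although the nearest library of day 21 replicate 2 was day 7 replicate 2 and the macrophage marker sums followed the number. Of the 64 calls, 63 were also made with the block. Other scaling, filter and trend settings kept both counts within 1.5 times, but not always the same genes. No filter kept 37 of the 64 calls, median ratio scaling 46, protein-coding rescaling 58 and no trend 60. With 1 library left out, changes that crossed 0 ran over −0.29 to 0.017 for Gata4, −0.15 to 0.23 for Hand2, −0.34 to 0.017 for Tbx5, −0.22 to 0.092 for Pmvk, −0.80 to 0.019 for Mpeg1, −0.29 to 0.62 for Oas3 and −0.17 to 0.43 for Oas2, none of them called. Actc1 was not called under median ratio scaling, protein-coding rescaling or no filter.

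For the difference from DMSO-treated cells (1 higher, 0 lower), counts were 0 and 0 with a 5 TPM filter, 7 and 7 with no filter and 6 and 3 at a pseudocount of 5, and 0 to 13 and 0 to 2 with 1 library left out. For the difference from uninfected cells (36 and 2) they were 12 and 1, 70 and 7, and 63 and 6 under those settings, 5 and 0 at a pseudocount of 0.1, 83 and 19 with the block, 49 and 4 with no trend, 31 and 4 under median ratio scaling, 33 and 4 under protein-coding rescaling, and 12 to 43 and 0 to 4 with 1 library left out. Median ratio scaling moved its median over all genes to −0.03, against 0.12.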

Other observations

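Some called genes outside the naming rule, chosen after their values were seen, had roles not yet described. Galnt16, an enzyme that starts O-linked glycans, had 12.8, 13.6 and 16.4 TPM at day 21, against 3.35, 5.33 and 4.03 TPM at day 7. It changed by 1.55 ± 0.21 (adjusted p = 0.00602), was called with each of the 6 libraries left out, and overlaps an antisense gene. Lrg1, a secreted leucine-rich glycoprotein of the acute phase, had 1.68, 2.47 and 2.04 TPM at day 21, against 0.0914, 0.430 and 0.251 TPM at day 7, changed by 1.28 ± 0.18 (adjusted p = 0.00602) and was called in 3 of those 6 fits; it passed the 1 TPM filter only through the 3 day 21 libraries. Day 21 was higher in all libraries for both genes.

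Trf, the iron carrier transferrin, had 52.8, 72.1 and 71.2 TPM at day 21, against 16.1, 30.6 and 23.1 TPM at day 7, a change of 1.48 ± 0.29 (adjusted p = 0.0495), and overlaps another gene on the same strand. Fth1, the heavy chain of the iron store ferritin, had 2354, 2054 and 1817 TPM at day 21, against 741, 1262 and 918 TPM at day 7, a change of 1.12 ± 0.21 (adjusted p = 0.0414). Scg2, a granin of secretory granules, had 17.6, 10.9 and 28.3 TPM at day 21, against 5.91, 5.07 and 7.30 TPM at day 7, a change of 1.40 ± 0.27 (adjusted p = 0.0439). The days did not overlap for these 3 genes, and each was called in 1 of the 6 fits with a library left out.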
